A study of Mus musculus with 6 samples.

Results

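Imprinted genes are expressed mainly from one parental allele, and 9 of them with known roles in muscle growth are described here in C2C12 cells, a mouse skeletal muscle line. They are H19, Meg3, Rian, Mirg, Dlk1, Peg3, Plagl1, Grb10 and Ndn, taken by gene name from the 55450 genes of the deposited table, whatever their values. Of the 9 genes, 7 had a count in at least 1 library and 2, H19 and Peg3, reached a mean of 1 FPKM (fragments scaled to transcript length and library depth), the level required for the main test. The cells had been transfected with 20 nM small interfering RNA against Cd36 (siCD36, 3 samples) or with control RNA (siCont, 3 samples) and were used after 72 h. Both groups were the same line, and the labels do not give which siCD36 duplex a sample received. The labels call the cells myoblasts and name skeletal muscle tissue as their source, whereas the methods describe myotubes, and the summed level of 8 myotube markers was 4970 to 7362 FPKM in the 6 libraries. Whether the samples were separate cultures is not stated, so p-values reflect no more than the scatter of these libraries, possibly of technical origin.

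Imprinting is set in the germ line by DNA methylation of control regions, after which genes of one domain can be read from the same or from opposite parental chromosomes. H19 is a maternally expressed long noncoding RNA that carries the miR-675 hairpin and shares enhancers with the paternally expressed growth factor gene Igf2. Meg3, Rian and Mirg are maternally expressed noncoding RNAs of the Dlk1-Dio3 domain and are hosts or neighbours of snoRNAs and of a large miRNA cluster, while Dlk1 of the same domain encodes a paternally expressed membrane protein of the Notch ligand family. Many imprinted genes are co-expressed in growing tissues and form what is called the imprinted gene network, in which the zinc finger protein Plagl1 is a known activator. The libraries measured total expression of each gene, and the parental allele was not measured.

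The data go against the name of the set as a network with Meg3. H19 was among the most abundant transcripts of the cells, Peg3 was well expressed, Grb10 had 64 to 91 counts and lay below the level of the main test, Plagl1 and Ndn had at most 23 counts in a library, and Meg3, Rian, Mirg and Dlk1 were at or near 0. None of the 2 tested members passed edgeR's quasi-likelihood test at a Benjamini-Hochberg adjusted p of 0.05, against 5.26% of all 11796 tested genes (2.2% higher and 3.06% lower with siCD36). Of these 2 members 1, H19, had an unadjusted p under 0.05, as did 25.4% of all tested genes, and was called by DESeq2, which called 14.2% of them. Limma on log2(FPKM + 1) called 0 members and 4.69% of all tested genes.

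**Figure D1:**
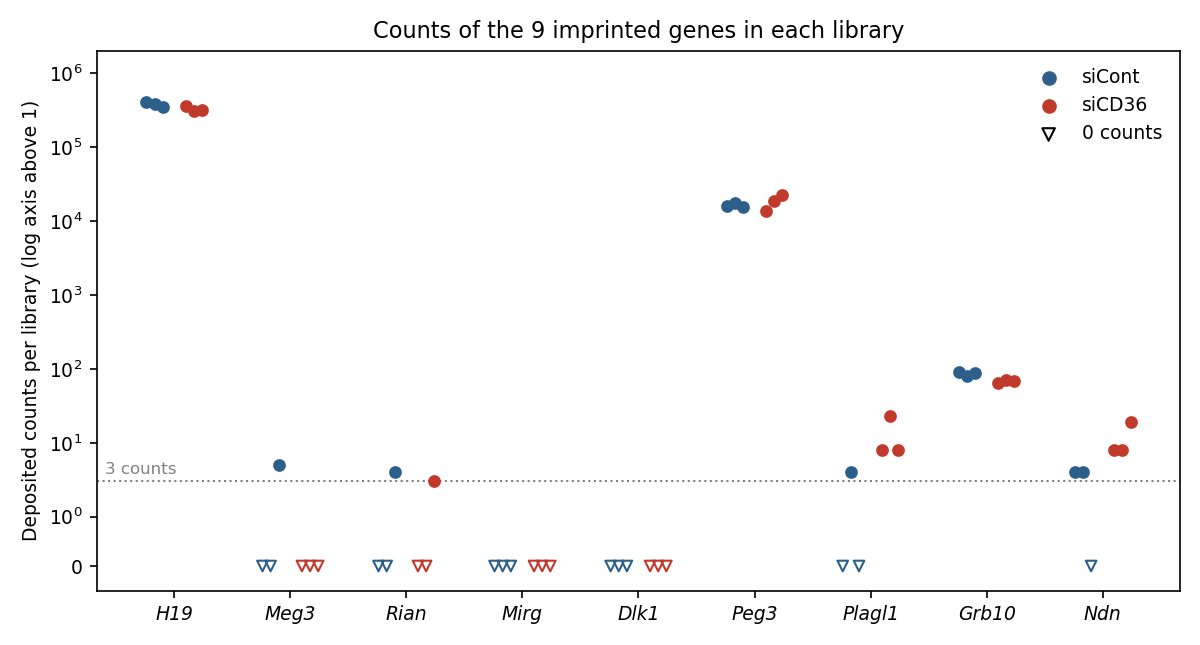
Deposited counts of the 9 imprinted genes (y axis, log scale above 1) in each of the 3 siCont (blue) and 3 siCD36 (red) libraries, where open triangles are libraries at 0 and the dotted line is at 3 counts. H19 has 305322 to 407805 counts and Peg3 13492 to 22146, while Mirg and Dlk1 are at 0 in all 6.

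The small RNAs encoded inside or between the noncoding RNAs of the H19 and Meg3 regions are shown first. They were not measured, because the labels describe selection of mRNA by oligo(dT). The mature sequences are from RefSeq on GRCm38.p6 and are written 5′ to 3′ with the seed, bases 2 to 8, in capitals. Both arms of miR-675 lie inside H19 on the minus strand, the 5p arm at chr7:142577112-142577133 and the 3p arm at chr7:142577078-142577099. The miR-379 and miR-1193 hairpins lie between Rian and Mirg, with the 5p arms at chr12:109709065-109709085 and chr12:109715716-109715735 on the plus strand, and are shown because these arms share one seed.
mmu-miR-675-5p: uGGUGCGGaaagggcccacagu
mmu-miR-675-3p: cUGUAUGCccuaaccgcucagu
mmu-miR-379-5p: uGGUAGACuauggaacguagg
mmu-miR-1193-5p: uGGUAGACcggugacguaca

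From the start of Meg3 to the end of Mirg, a stretch of 208.5 kb, RefSeq lists 112 entries of mature miRNAs from 60 genes. They hold 102 different seeds, and 10 of the seeds are each shared by 2 entries. For the seed GCCCCUG both entries are the same sequence, miR-3070-5p, listed for Mir3070a and Mir3070b. The seed GGUAGAC is shared by miR-379-5p and miR-1193-5p. Likewise miR-370-5p, inside Rian, shares AGGUCAC with miR-1193-3p.

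Cd36, the target of the siRNA and the gene of a fatty acid receptor, had counts of 38, 32 and 30 with siCD36 and of 1010, 1129 and 1103 with siCont. The libraries held 56907806 to 71878709 counts, with 99.05% to 99.25% of them in tested genes, and all 3 siCD36 libraries were deeper than all 3 siCont libraries. Low counts in the table pile up at multiples of 4, with 6294 entries at a count of 4 but 2002 at 3 and 1086 at 5. How the counts were derived is not stated. It follows that 1 count may not stand for 1 fragment, and counting error at low levels may be larger than the counts imply. A floor of 3 counts corresponds to 0.0412 to 0.0525 CPM per library (counts scaled to library size after TMM normalization). It would be the limit for a gene at 0 if each count were 1 fragment, and covers counting error only, so the true limit may be higher by an amount that is not known.

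H19 (ENSMUSG00000000031, minus strand, chr7:142575529-142578143) is known in mouse muscle for promoting differentiation and for restraining growth. Its level was 5531, 4391 and 4313 CPM in siCD36 replicates 1, 2 and 3, and 7137, 6300 and 6024 CPM in the siCont replicates in the same order. Every siCD36 library lay below every siCont library, and siCD36 replicate 1 was the closest to the controls. The mean was 4745 ± 682 CPM with siCD36 against 6487 ± 580 CPM with siCont (SD, n = 3 each). The log2 fold change was -0.45 (standard error 0.136, 95% interval -0.78 to -0.12) and did not pass the test (edgeR, adjusted p = 0.107, unadjusted p = 0.0143). The exact 2-sided permutation test over samples gave p = 0.1, the smallest value that 3 against 3 allows. Groups without overlap were found in 32.4% of all tested genes, with siCD36 the lower group in 16.3%, so separation alone does not set H19 apart. Without siCD36 replicate 1 the log2 fold change was -0.58 and passed (edgeR, adjusted p = 0.0406), and DESeq2 on all 6 libraries also called it (adjusted p = 0.0104). In the other alternatives edgeR and limma gave adjusted p-values of 0.0611 to 0.302 with the same direction.

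The abundance of H19 was extreme in both groups. Its length-scaled level was 1962, 1604 and 1589 FPKM with siCD36 and 2432, 2262 and 2200 FPKM with siCont. By FPKM it ranked 24, 30 and 30 among all genes of the siCD36 libraries and 22, 21 and 22 among those of the siCont libraries. It held 0.437% to 0.542% of all counts with siCD36 and 0.608% to 0.673% with siCont. Among genes annotated as lincRNA it had the highest mean, 2008 FPKM, followed by AY036118 at 1116 FPKM. The separate row of Mir675, the hairpin gene inside H19 on the same strand, was at 1 count in every library, and the sources do not state how reads over both were assigned.

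The summed FPKM of the 8 myotube markers was 6622, 5231 and 4970 with siCD36 and 7362, 6524 and 6171 with siCont, so that siCD36 replicates 2 and 3 were lowest, as for H19, and siCD36 replicate 1 lay within the controls. Acta1, skeletal muscle actin, and Ckm, muscle creatine kinase, did not pass the test (edgeR, log2 fold change -0.38 with adjusted p = 0.266, and -0.54 with adjusted p = 0.173). Of the other markers, the troponin gene Tnnt1 was at 0.31, the transcription factor gene Myog at 0.02, the myosin gene Myh8 at 0.01, and the fusion genes Mymk and Mymx at -0.17 and -0.05 on the log2 scale, and none passed (edgeR, adjusted p of 0.317 to 0.963). Acta1, with a mean of 3856 FPKM, made up most of the summed level. Within each library Acta1 was 1.79 to 2.12 times H19 by FPKM, over both groups. Myh3, the embryonic myosin heavy chain, was the marker that fell, by 0.62 on the log2 scale (edgeR, standard error 0.0844, adjusted p = 0.021), and lost its call without siCD36 replicate 2 (0.113) or siCont replicate 1 (0.0525), 2 (0.0949) or 3 (0.0588). Of the 3 myoblast markers, Myf5 was higher with siCD36 (edgeR, log2 fold change 0.93, adjusted p = 0.0274), a call lost without siCD36 replicate 2 (0.116) or 3 (0.0826) or siCont replicate 1 (0.079) or 2 (0.111), while Myod1 did not pass (edgeR, log2 fold change 0.01, adjusted p = 0.975) and Pax7 had at most 0.522 CPM. Of 8 markers of other cell types, Plin1 and Adgre1 were at 0 in every library and the summed level was 5.25 to 5.82 FPKM with siCD36 and 3.78 to 5.43 FPKM with siCont, most of it Tubb3. The part of cell state in the values of H19 was not tested, and in whole-culture RNA fewer cells of a state and less RNA per cell cannot be told apart.

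The tested genes whose CPM followed H19 most closely over the 6 libraries were Ckmt2, the mitochondrial creatine kinase of muscle (Pearson r = 0.998), the sphingosine phosphate receptor gene S1pr3 (0.997) and Pitpna, a phospholipid transfer protein (0.997). This is a description over 6 libraries that share their depth and scaling, ranked among 11795 genes on log2 CPM. Ckm ranked 232 (r = 0.966), Acta1 337 (0.955) and Myh3 1729 (0.802). These are the myotube markers with the lowest log2 fold changes. Ranks of the others, whose log2 fold changes ran from -0.17 (Mymk) to 0.31 (Tnnt1), are not given. The ranks printed here therefore do not describe the myotube markers as a set. Igf2 ranked 2655 (0.658), Peg3 6377 (-0.125) and Mest 11387 (-0.924). No such ranking was possible for Meg3, which was at 0 in 5 libraries.

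Igf2, the growth factor gene that shares enhancers with H19, overlapped between the groups. Its level was 73.4, 33.5 and 55.8 CPM with siCD36 and 65.9, 60.9 and 66.7 CPM with siCont. The siCD36 libraries enclosed the range of the controls, and the log2 fold change of -0.25 (95% interval -0.88 to 0.38) did not pass the test (edgeR, adjusted p = 0.598). By FPKM, H19 exceeded Igf2 by a ratio of 175, 305 and 180 with siCD36 and of 252, 241 and 210 with siCont (exact permutation test, 2-sided, p = 0.8). The groups overlapped in this ratio, with siCD36 replicate 2 the highest of the 6 libraries.

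The surroundings of H19 held many expressed genes and those of Meg3 none at the level of the filter. Within 300 kb of the start of H19 on chromosome 7, 18 of 29 annotated genes had counts and 9 reached a mean of 1 FPKM, including Tnnt3 and Tnni2, genes of fast muscle troponins, and Ctsd, a lysosomal protease. Tnnt3 had a mean of 1419 FPKM, close to the 2008 FPKM of H19, and a log2 fold change of 0.03 (edgeR, adjusted p = 0.942). Nctc1, a noncoding RNA of the muscle enhancer region between H19 and the troponins, had 2.59, 1.54 and 2.01 CPM with siCD36 and 3.87, 2.95 and 3.39 CPM with siCont. It lay below the filter, and the fit without the filter did not call it (edgeR, log2 fold change -0.75, adjusted p = 0.207).

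**Figure D2:**
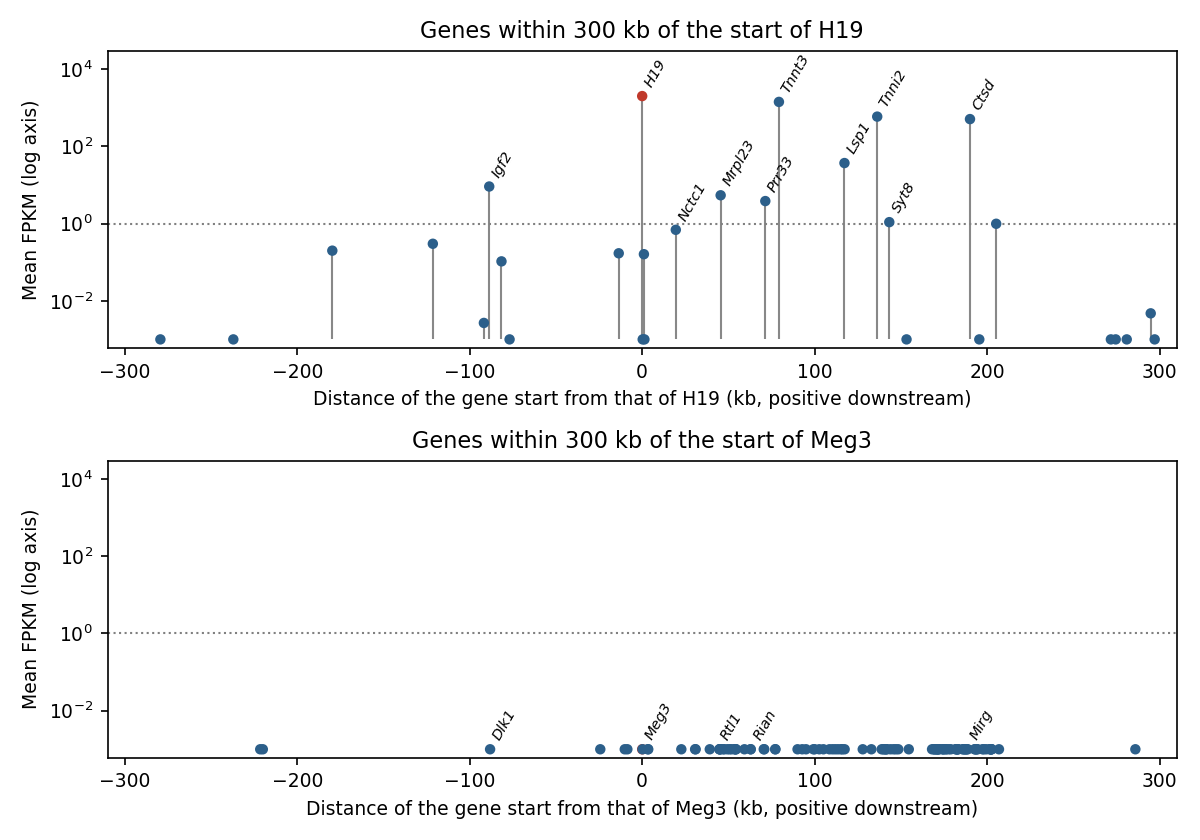
Mean FPKM over the 6 libraries (log axis, values below 0.001 drawn at 0.001) of every gene that starts within 300 kb of H19 (top) or Meg3 (bottom), against the distance between gene starts in kb. Of 29 genes around H19, 9 lie on or above the dotted line at 1 FPKM, and none of 107 around Meg3 does.

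On the longer list of 16 neighbours from the H19-Igf2 and Kcnq1 domains, 8 were tested, 1 was lower and 7 did not pass. This is 12.5% called beside 5.26% of all tested genes, of which 3.06% were lower, and it rests on 1 gene. The median log2 fold change was -0.17 beside 0.00 over all tested genes. Tspan32, a tetraspanin gene between Igf2 and Kcnq1, was the lower one, at 6.42, 6.00 and 7.83 CPM with siCD36 and 12.8, 16.4 and 18.3 CPM with siCont. It fell by 1.23 on the log2 scale (edgeR, standard error 0.176, adjusted p = 0.0234). The call was lost without siCD36 replicate 2 (0.107) or without siCont replicate 2 (0.106) or 3 (0.0635). Its neighbour Cd81, another tetraspanin, did not pass (edgeR, log2 fold change -0.38, adjusted p = 0.0706), though it passed without siCD36 replicate 1 (0.0269). Its groups did not overlap, as in 32.4% of all tested genes. Th, Ascl2 and Phlda2 were at 0 in every library, and Kcnq1ot1, the noncoding RNA that silences the Kcnq1 domain, had a log2 fold change of 0.42 in the fit without the filter (edgeR, adjusted p = 0.399).

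Reported targets of miR-675 in mouse cells are Smad1 and Smad5, mediators of BMP signaling, the replication factor gene Cdc6, and Igf1r, the IGF receptor. Matches to the miRNA seeds were looked for in the longest annotated 3′ UTR of each gene, as CCGCACC for the 5p arm and GCATACA for the 3p arm on the mRNA strand. Cdc6 held 1 match for the 5p arm, Smad5 1 and Igf1r 2 for the 3p arm, and Smad1 none of either. The matches are given in capitals with 10 bases on each side, from GENCODE M21 transcripts on the plus strand of GRCm38, at chr11:98921315-98921321 (Cdc6), chr13:56737896-56737902 (Smad5), chr7:68226906-68226912 and chr7:68227665-68227671 (Igf1r).
Cdc6: cttttttactCCGCACCagtaaatttt
Smad5: ctttgaaaaaGCATACAttgtttgcaa
Igf1r, first: tcatcaccccGCATACAcctgcctgac
Igf1r, second: tgaaacatttGCATACAcatcgtcttt

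Of 21045 annotated 3′ UTRs, 1.83% hold the first of these motifs and 7.88% the second. None of the 4 genes passed edgeR's test. Cdc6 had 2.16, 1.54 and 2.51 CPM with siCD36 and 1.26, 0.884 and 0.505 CPM with siCont (log2 fold change 1.22, adjusted p = 0.189, edgeR fit without the filter). The log2 fold changes were 0.28 for Smad1 (adjusted p = 0.101), 0.48 for Smad5 (0.485) and 0.10 for Igf1r (0.661). The median log2 fold change was 0.05 over the 792 tested genes with the 3p match, -0.07 over the 232 with the 5p match and -0.02 over 9056 with neither, and 6.44%, 5.6% and 5.68% of them passed.

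The Dlk1-Dio3 domain on chromosome 12 gave almost no counts. Meg3 (ENSMUSG00000021268, chr12:109541001-109571721), a noncoding RNA with tumour-suppressing and muscle differentiation roles, had 0 counts in all libraries but siCont replicate 3, with 5. Rian (chr12:109603940-109659130), the host of a C/D box snoRNA cluster, had 3 counts in siCD36 replicate 3 and 4 in siCont replicate 3. Mirg (chr12:109729764-109749460), which contains part of the miRNA cluster, and Dlk1 (chr12:109452823-109463336), an inhibitor of adipocyte and regulator of muscle differentiation, had 0 counts in all 6 libraries. The floor of 3 counts, 0.0412 to 0.0525 CPM, may understate what these zeros allow, for the reason given above, and the lowest H19 value was 4313 CPM. No difference between siCD36 and siCont was detectable for these 4 genes at this depth. Of the 100 gene rows from Meg3 to Mirg, 66 are miRNAs and 23 are snoRNAs, all without counts, but RNAs of these classes lack the poly(A) tails on which the libraries rest.

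Genes that flank the domain were expressed. Rtl1, Dio3 and Dio3os, which lie in the domain, were at 0 throughout, whereas 3 of 4 flanking genes were tested. Of these 3 genes 1 passed, beside 5.26% of all tested genes, and 1 call is no result about the flank. Slc25a29, a mitochondrial carrier of basic amino acids, was lower with siCD36, at 15.5, 14 and 13.2 CPM against 21, 19.2 and 21.5 CPM with siCont. It fell by 0.53 on the log2 scale (edgeR, standard error 0.105, adjusted p = 0.0424). The call held in 1 of 6 fits with a library left out, without siCD36 replicate 1 (0.0333), and was lost without siCD36 replicate 2 (0.161) or 3 (0.12) and without siCont replicate 1 (0.112), 2 (0.128) or 3 (0.116). Yy1, a zinc finger transcription factor, and Wdr25 did not pass (edgeR, log2 fold change -0.01 with adjusted p = 0.912, and -0.20 with 0.38). Begain, a synaptic protein gene upstream of Dlk1, had 2.95, 2.59 and 3.23 CPM with siCD36 and 1.51, 1.23 and 0.87 CPM with siCont. It did not pass in the fit without the filter (edgeR, log2 fold change 1.27, adjusted p = 0.0717).

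Peg3 (ENSMUSG00000002265, minus strand, chr7:6703892-6730431), a paternally expressed zinc finger gene linked to p53 and TRAF2 signaling and to muscle stem cell survival, was the only member besides H19 at a testable level. It had 205, 269 and 304 CPM with siCD36 and 275, 288 and 266 CPM with siCont. The siCD36 libraries lay on both sides of the controls and spread more widely, 259 ± 50.1 CPM against 276 ± 10.8 CPM (SD, n = 3 each). The log2 fold change was -0.09 (standard error 0.141, 95% interval -0.43 to 0.25), which did not pass (edgeR, adjusted p = 0.733). With single libraries left out it ran from -0.22 to 0.05. At a mean of 17.8 FPKM, Peg3 stood far below the 2008 FPKM of H19 per length.

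Of the neighbours of Peg3, Zim1 and Usp29 were detected and Zim2, Zim3 and Zfp264 were at 0. Zim1, a maternally expressed zinc finger gene, had 9.48, 18.6 and 23.4 CPM with siCD36 and 21.2, 23.2 and 23.6 CPM with siCont, so that siCD36 replicate 1 was lowest for it as for Peg3. Its log2 fold change of -0.40 did not pass (edgeR, adjusted p = 0.465). Usp29, a paternally expressed gene next to Peg3, had 0.898 to 2.09 CPM over the 6 libraries and a log2 fold change of 0.02 in the fit without the filter (edgeR, adjusted p = 0.976).

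**Figure D3:**
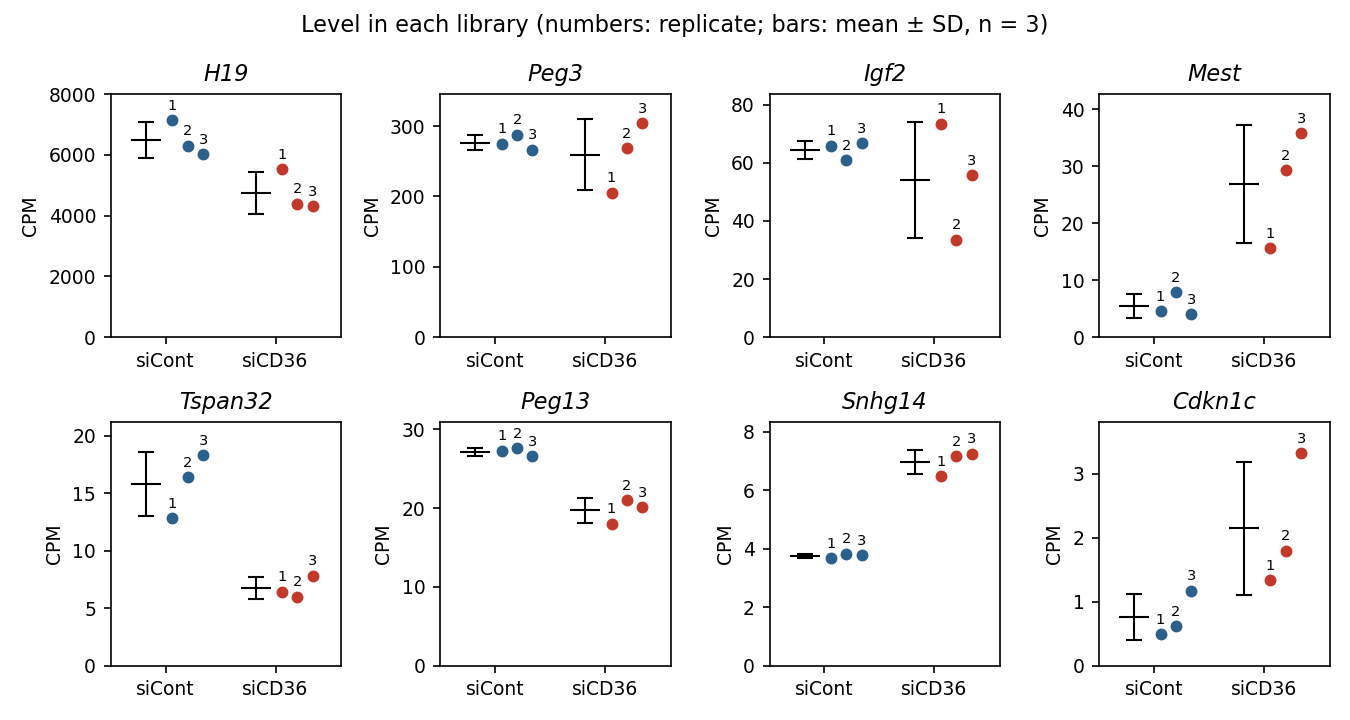
CPM of 8 genes in each library, with the replicate number above each point and the mean ± SD of the 3 libraries of a group beside them (y axes start at 0 and differ between panels). H19, Tspan32 and Peg13 are lower and Mest, Snhg14 and Cdkn1c higher in all siCD36 libraries, while Peg3 and Igf2 overlap. Tspan32, Peg13 and Mest passed edgeR's main test. Snhg14 and Cdkn1c lie below the filter. In edgeR's fit without the filter Snhg14 passed (adjusted p = 0.0381) and Peg13 did not (0.0695).

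Grb10 (ENSMUSG00000020176, chr11:11930508-12037401) encodes an adaptor that binds the insulin and IGF receptors and restrains growth, also of muscle. It had 64, 70 and 69 counts with siCD36 and 91, 79 and 89 with siCont, which is 0.974, 1.01 and 0.948 CPM against 1.59, 1.32 and 1.55 CPM. All siCD36 libraries were below all siCont libraries, and the spread among siCD36 libraries was small. At a mean of 0.118 FPKM the gene lay below the filter. The fit without the filter gave a log2 fold change of -0.62 (standard error 0.219, 95% interval -1.14 to -0.10) that did not pass (edgeR, adjusted p = 0.244 over 26215 genes, of which 1.25% passed, 0.442% higher and 0.805% lower). Over the alternatives its adjusted p was 0.163 to 0.494.

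Plagl1 (chr10:13060504-13130982), the zinc finger activator of the network, had 8, 23 and 8 counts with siCD36 and 0, 4 and 0 with siCont. Ndn (chr7:62346569-62350262), which encodes necdin, a MAGE family protein that favours myoblast differentiation, had 8, 8 and 19 counts with siCD36 and 4, 4 and 0 with siCont. For both genes the siCD36 libraries were the higher ones without overlap, on counts of 23 or fewer that fall mostly on multiples of 4. Plagl1 had 0.122, 0.331 and 0.11 CPM with siCD36 and 0, 0.0667 and 0 CPM with siCont. Ndn had 0.122, 0.115 and 0.261 CPM with siCD36 and 0.07, 0.0667 and 0 CPM with siCont. The deeper siCD36 libraries also held more genes with counts (20863 to 21825 against 20585 to 20710). The share of separated groups, 32.4%, covers tested genes only, and none is given for genes below the filter, Grb10 included. Plagl1 and Ndn did not pass in the fit without the filter (edgeR, adjusted p = 0.421 for Plagl1 and 0.482 for Ndn). No fold is given, since the siCont libraries were at or near the floor of 3 counts. The tested neighbours of Plagl1 and Grb10 were Ddc, a decarboxylase gene imprinted in heart, and Cobl, an actin nucleator gene, and neither passed (edgeR, log2 fold change 0.16 with adjusted p = 0.528, and -0.08 with 0.624).

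Of the 8 neighbours of Ndn in the Prader-Willi domain, 7 had counts and 2 were tested. Snrpn, a splicing protein gene, did not pass (edgeR, log2 fold change 0.05, adjusted p = 0.817). Snhg14, the long host transcript of the snoRNAs of this domain, had 6.47, 7.16 and 7.24 CPM with siCD36 and 3.68, 3.82 and 3.78 CPM with siCont. The siCD36 group was higher with little spread. At a mean of 0.181 FPKM the gene lay below the filter. It passed in the fit without the filter (edgeR, log2 fold change 0.88, standard error 0.13, adjusted p = 0.0381), as did 1.25% of its 26215 genes, 0.442% of them higher. The call held without siCD36 replicate 1 (0.0447) and was lost without siCD36 replicate 2 (0.171) or 3 (0.127) or siCont replicate 1 (0.108), 2 (0.168) or 3 (0.105). Ube3a, the ubiquitin ligase gene that Snhg14 silences in neurons, lies next to it on the opposite strand, overlapped between the groups and did not pass (edgeR, log2 fold change -0.40, adjusted p = 0.477).

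Among 12 further genes of the imprinted network, 7 were tested, and Mest alone passed, 14.3% beside 5.26% of all tested genes. Mest (chr6:30723547-30748462), a paternally expressed gene of the alpha/beta hydrolase fold that is also the host of miR-335, had 15.6, 29.3 and 35.8 CPM with siCD36 and 4.57, 7.87 and 4.00 CPM with siCont. The siCD36 libraries were all higher, with siCD36 replicate 1 closest to the controls. The means were 26.9 ± 10.3 and 5.48 ± 2.09 CPM (SD, n = 3 each), a ratio of 4.91. The fitted log2 fold change was 2.29 (edgeR, standard error 0.389, adjusted p = 0.0308). The call held without siCD36 replicate 1 (0.0221) and was lost without siCD36 replicate 2 (0.116) or 3 (0.0867) or siCont replicate 1 (0.0928), 2 (0.082) or 3 (0.0856), with log2 fold changes of 2.03 to 2.65 throughout. Mest overlaps the end of Copg2 on the opposite strand, whose log2 fold change was -0.07 (edgeR, adjusted p = 0.712).

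The other partners gave smaller or noisier values. Cdkn1c, a maternally expressed cell cycle inhibitor that acts in muscle differentiation, had 1.34, 1.80 and 3.32 CPM with siCD36 and 0.49, 0.617 and 1.17 CPM with siCont. It lay below the filter and did not pass in the fit without it (edgeR, log2 fold change 1.49, adjusted p = 0.192). Igf2r, the receptor that clears IGF2, did not pass (edgeR, log2 fold change 0.12, adjusted p = 0.457). Neither did the matrix proteoglycan gene Dcn (0.16, adjusted p = 0.208), the sarcoglycan gene Sgce (0.22, 0.269), Gatm, an enzyme of creatine synthesis (-0.21, 0.49), and Gnas, a G protein subunit (-0.10, 0.634). Peg10, a gene derived from a retrotransposon, was below the filter and did not pass without it (edgeR, log2 fold change -0.04, adjusted p = 0.977), and Nnat, Asb4 and Ppp1r9a stayed at or below 0.505 CPM. Over the 7 tested partners the median log2 fold change was 0.12.

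**Figure D4:**
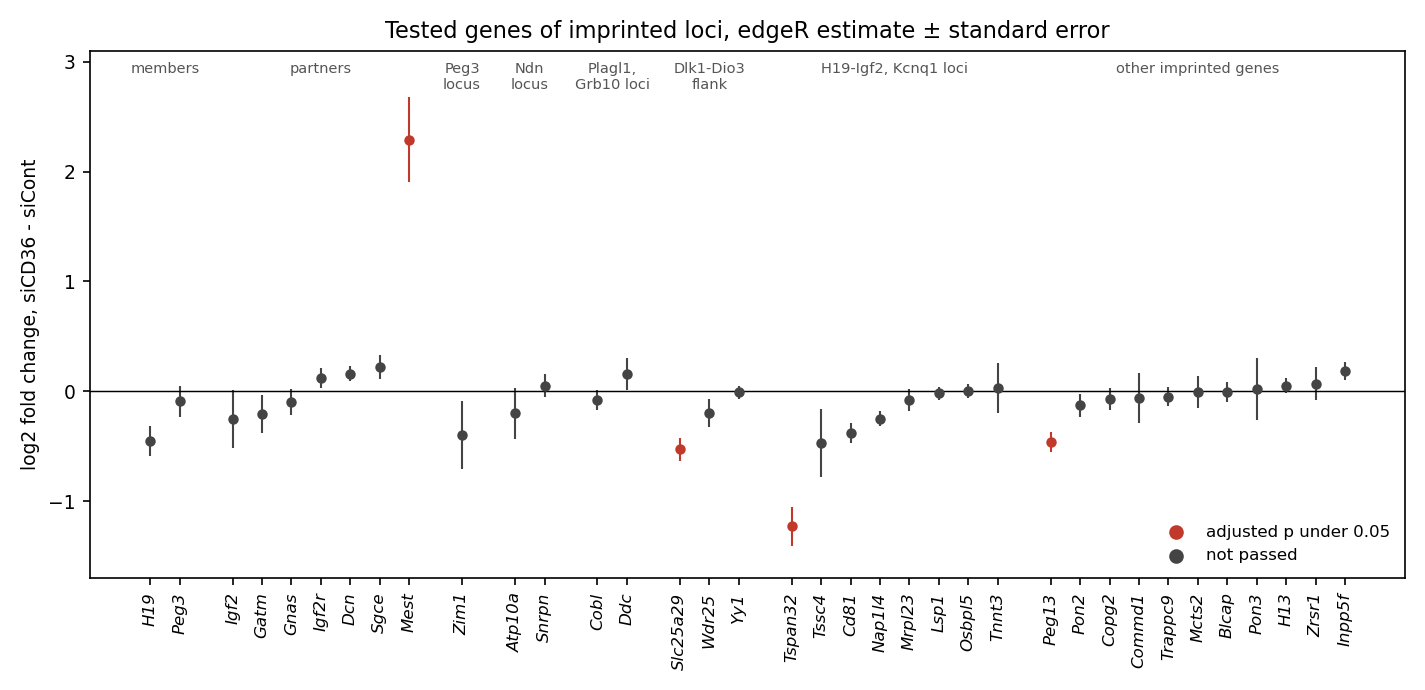
Log2 fold change of siCD36 against siCont (y axis, points, with bars of 1 standard error) for the 36 tested genes of imprinted loci, grouped by list on the x axis, red where edgeR's adjusted p was under 0.05. Mest stands at 2.29 and Tspan32 at -1.23, and the 2 tested members, H19 and Peg3, are among the 32 genes that did not pass.

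Over the members and all lists of imprinted loci together, 36 of 83 genes found in the table were tested. Of these 1 was higher and 3 were lower, 11.1% in all beside 5.26% of all tested genes, with a median log2 fold change of -0.06. An unadjusted p under 0.05 (edgeR) was found for 7 of the 36, beside 25.4% of all tested genes. Groups without overlap made up 30.6% of the 36, beside 32.4% of all. The lists were chosen with earlier results of these data known, so these shares are a description and no test of the set. Of 23 imprinted genes at other loci 11 were tested, and the lower one was Peg13, a noncoding RNA inside an intron of Trappc9, at 18, 21 and 20.1 CPM with siCD36 and 27.3, 27.6 and 26.6 CPM with siCont. Its log2 fold change was -0.46 (edgeR, standard error 0.0927, adjusted p = 0.0434), while that of Trappc9, on the same strand, was -0.05 (adjusted p = 0.782). Reads from the introns of Trappc9 and from Peg13 cannot be told apart. The call held without siCD36 replicate 1 (0.0465) and was lost without siCD36 replicate 2 (0.125) or 3 (0.113), without siCont replicate 1 (0.113), 2 (0.162) or 3 (0.104), and with other scaling (0.0693 without TMM).

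Transcripts of genes whose proteins maintain imprints, or bind or follow the members, were also counted. Of 15 genes for imprint maintenance and the Polycomb repressive complex, 9 were tested and 0 passed edgeR, with 1 at an unadjusted p under 0.05, 1 called by DESeq2 and 0 by limma, and a median log2 fold change of 0.02. Dnmt1, the maintenance methyltransferase, Ctcf, which insulates the H19-Igf2 domain, and Trim28, a corepressor at imprinted regions, had log2 fold changes of -0.19, 0.15 and 0.02 (edgeR, adjusted p = 0.303, 0.307 and 0.92). Ezh1, a Polycomb methyltransferase gene, was the one called by DESeq2 (adjusted p = 0.0454), with a log2 fold change of -0.22 and no overlap (edgeR, adjusted p = 0.0986, unadjusted p = 0.0119). Uhrf1, a cofactor of Dnmt1, was just below the filter at a mean of 0.978 FPKM. It had a log2 fold change of 1.11 in the fit without the filter (edgeR, adjusted p = 0.146). Of 14 genes that bind members or act downstream of them, 10 were tested and 0 passed edgeR, with 4 at an unadjusted p under 0.05, 4 called by DESeq2 and 1 by limma, beside 25.4%, 14.2% and 4.69% of all tested genes. Of the 10, 8 lay above 0 and the groups of 5 did not overlap, beside 50.5% and 32.4% of all. The median log2 fold change was 0.24 beside 0.00. This list was chosen with earlier results of these data known, so its shares and median describe it and do not test it. Among the 10, the ubiquitin ligase gene Siah1a, a partner of Peg3, was at 0.28 on the log2 scale (edgeR, adjusted p = 0.0718), and Maged1, a partner of necdin, at 0.24 (0.114). Insr, the insulin receptor that Grb10 binds, had 7.88, 13.3 and 12.7 CPM with siCD36 and 16, 46.5 and 19.3 CPM with siCont, and its log2 fold change of -1.27 (edgeR, adjusted p = 0.14) was -0.64 without siCont replicate 2.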

How the data were processed

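Libraries of 6 samples, 3 siCD36 and 3 siCont, were analysed. Groups and replicate numbers came from the labels, and the siRNA dose, the time and the stage of the cells from the paper's methods. HISAT (alignment), StringTie (FPKM) and edgeR (tests) were the authors' tools. The deposited table gives raw gene counts, on which the authors had made no normalization, and FPKM, which the authors scaled for length and depth. Genes at 0 counts are listed at 1e-04 FPKM. For the counting tool, annotation, strand setting and genome build, the sources used here give nothing. All 55450 genes occur in GENCODE M21 (GRCm38), 94.7% of them with identical coordinates, and positions are printed as the table gives them.

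The main test was the quasi-likelihood test of edgeR 4.0.16 in R 4.3.3 (glmQLFit, glmQLFTest) on TMM-scaled counts, with condition as the only term. It covered the 11796 genes whose mean reached 1 FPKM. Genes below this mean were taken from a fit of all 26215 genes with a count. The Benjamini-Hochberg adjustment ran over every gene of a fit, at a threshold of 0.05. Intervals are 95% and use the quasi-likelihood degrees of freedom. The scripts were tested on simulated data. Totals were 56907806 to 71878709 counts per library, and genes of few counts are the least precise.

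The text names all 9 members, Cd36, the network partners, members of other lists that passed, and neighbours of member loci. The members and lists were chosen with earlier results of these data known. Marker genes and genes that bind members, act downstream of them or maintain imprints were named after their values were seen. Apeg3 and Hymai, which were listed as neighbours, matched no gene name. Alternatives were other scalings, filters, pseudocounts of 1 and 0.1 in limma 3.58.1, DESeq2 1.42.0, robust dispersion, a replicate block and each library left out. Counts divided by 4 and rounded were added after the data were seen.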

Additional observations from a re-analysis of the deposited data

How the results depend on the processing

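The number of genes that passed the test was 621 with edgeR and changed with the method. It was 1677 with DESeq2, 327 with no filter on low values and 199 with the replicate number as a block. With single libraries left out it ran from 20 (without siCD36 replicate 2) to 1081 (without siCD36 replicate 1). Of the members, 0 passed in the main test, 1 (H19) with DESeq2, and 0 to 1 with single libraries left out, H19 again without siCD36 replicate 1. Libraries of the same replicate number did not deviate together (correlations of 0.128, -0.043 and 0.013), so the numbers were not taken to pair the samples. Under the replicate block the adjusted p from edgeR was 0.0611 for H19, 0.0575 for Mest, 0.0805 for Slc25a29, 0.0808 for Peg13, 0.0596 for Myf5 and 0.114 for Snhg14. Of these genes H19 had not passed before, and the block changed no other call among the named genes. Slc25a29 was at 0.0729 and Peg13 at 0.0695 with no filter, Slc25a29 at 0.0504 with filterByExpr, Snhg14 at 0.0816 and Peg13 at 0.0667 in limma on log2(FPKM + 1), and at 0.214 and 0.0674 on log2(FPKM + 0.1). DESeq2, which called 14.2% of all tested genes, also called Cd81 (adjusted p = 0.00895), Smad1 (0.0351), Insr (0.0122), Ezh1 (0.0454), Maged1 (0.0493), Siah1a (0.0132) and Nap1l4 (0.0492), a neighbour in the Kcnq1 domain. Its separate fit without the filter, for which no share is given, called Begain (0.00228), Cdkn1c (0.0318) and Uhrf1 (0.0078), a DNA methylation cofactor. Siah1a passed in limma (0.0435 on log2(FPKM + 1)) and with a mean of at least 5 FPKM (0.0436). Begain passed in edgeR fits without the filter with robust dispersion (0.0374) and with counts divided by 4 (0.0483). The causes were not tested. Depth limits Meg3, Rian, Mirg, Dlk1, Plagl1 and Ndn most, since their counts lie near the floor of 3 counts.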
